A study of Homo sapiens with 6 samples.

Results

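The genes examined were the 9 that encode the FOS, JUN and related subunits of the transcription factor AP-1: FOS, FOSB, FOSL1, FOSL2, JUN, JUNB, JUND, ATF3 and BATF3. A peak of open chromatin was given to one of them when its centre lay in the gene's GENCODE release 44 body, or when it lay outside protein-coding genes and the nearest protein-coding start site was that of the gene. This rule took 101 of the 152800 peaks in the table, 47 of them promoter peaks and 54 distal, and used none of the measured values. A promoter peak has its centre within 3 kb of any transcript start of a protein-coding gene or a long non-coding RNA gene, and all other peaks are called distal. Of the 47 promoter peaks, 29 lie within 3 kb of a start of their own gene and 18 near another start only. The cells were A375, a human melanoma line with an activating BRAF mutation. ATAC-seq, in which the Tn5 enzyme cuts and tags accessible DNA, was done on 3 libraries of cells carrying an empty vector (EV) and 3 of cells overexpressing HMGB2 (HMGB2OE). HMGB2 is a high-mobility-group protein that binds and bends DNA. Both lines were made by lentiviral transduction and drug selection, and no dose, time course or other treatment separates the groups.

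AP-1 is a dimer of basic leucine zipper proteins. FOS proteins must pair with a JUN protein to bind DNA, JUN proteins can also pair with each other, and ATF3 and BATF3 can pair with JUN proteins. The dimer binds the 7-base word TGASTCA (S is C or G). FOS, FOSB, JUN, JUNB and ATF3 are immediate-early genes, induced within minutes by growth factors or stress through MAP kinases, whereas FOSL1 and FOSL2 follow later. In melanoma, AP-1 activity is known for its link to the dedifferentiated, invasive state. The comparison made here asks at which of these genes' own regulatory sites accessibility differed between HMGB2OE and EV cells. A count from a bulk library cannot tell fewer cells with an open site from a less open site in each cell.

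The libraries held from 26910189 to 45645294 counts in peaks. Libraries of 1 group differed by more than sampling noise (chi-square per degree of freedom from 2.50 to 4.66), so each was counted once. The study describes them as technical replicates, and p-values therefore measure only the spread between these libraries. Peaks in the coding exons of HMGB2 were higher in HMGB2OE libraries, as at the peak with 288 coding bases (32.0 ± 15.7 against 98.4 ± 5.31, SD, n = 3, log2 fold change 1.67, adjusted p = 1.13e-04), where reads of the introduced coding sequence and of the gene cannot be told apart. The promoter peak of HMGB2 was at 1986 ± 223 and 1973 ± 59.0 (SD, n = 3), a log2 difference of -0.011 whose sign turned under another scaling. Among melanocytic markers, 5 of 7 had a promoter peak and TYR and DCT had none, with the summed level between 5957 and 6579 in EV and between 5936 and 6285 in HMGB2OE libraries. All 3 blood, 3 keratinocyte and 2 fibroblast markers also had a promoter peak, with mean EV counts from 116 to 751. The markers' part in the results below was not tested.

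All 101 peaks passed the filter on low counts. A peak was called when its Benjamini-Hochberg adjusted p in edgeR's quasi-likelihood test was under 0.05 over all 150117 tested peaks and its fold change was at least 1.5 (0.585 on the log2 scale). Of the 101 peaks, 2 were called higher in HMGB2OE cells (1.98%), beside 1.87% of all tested peaks, and 0 were called lower, beside 1.44%. At an unadjusted p under 0.05, 10 of the 101 were higher and 10 lower in edgeR, beside 16111 and 15247 of all 150117 tested peaks. In DESeq2 8 were higher and 9 lower at an unadjusted p under 0.05, and it called the same 2 peaks higher and 0 lower. The share of peaks called was therefore near the background. Both calls were distal, at FOSL2 and at ATF3. Counts below are normalized counts, that is counts scaled to 1 common effective library size.

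The FOSL2 call lay in an intron, 17.0 kb past the start of the gene (which spans chr2:28392448-28417317, plus strand), at chr2:28409164-28409665 (hg38). FOSL2 encodes FRA2, a FOS protein without the strong activation domain of FOS. Its count was 129, 112 and 164 in the 3 EV libraries and 285, 252 and 290 in the 3 HMGB2OE libraries. Every HMGB2OE library was above every EV library. The mean rose from 135 ± 26.5 to 276 ± 20.8 (SD, n = 3), a 2.05-fold rise (log2 fold change 1.04 with a standard error, SE, of 0.139, adjusted p = 3.44e-05). The peak was called in 16 of 16 fits, with a log2 fold change between 0.90 and 1.20.

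The ATF3 call was intergenic, 52.1 kb before the annotated start of the gene (which spans chr1:212565334-212620777, plus strand), at chr1:212512998-212513499. ATF3 encodes a stress-induced factor of the ATF/CREB family that represses or activates according to its partner. Its count was 363, 495 and 599 in EV and 704, 713 and 787 in HMGB2OE libraries. The groups did not overlap, but the EV libraries were spread widely. The mean rose from 486 ± 119 to 735 ± 45.5 (SD, n = 3). The log2 fold change was 0.59 (SE 0.116, adjusted p = 0.00203), just past the limit of 0.585. The adjusted p stayed under 0.05 in 16 of 16 fits (0.0104 at most), whereas the fold limit was missed in 4, among them without EV replicate 1 (0.43) and without HMGB2OE replicate 3 (0.54).

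The central 300 bases of both peaks are given because these are the sites that differed. Capitals mark the AP-1 word, of which each peak held 1. The strand shown is the plus strand of hg38, at chr2:28409265-28409564 and chr1:212513099-212513398.
FOSL2 intron: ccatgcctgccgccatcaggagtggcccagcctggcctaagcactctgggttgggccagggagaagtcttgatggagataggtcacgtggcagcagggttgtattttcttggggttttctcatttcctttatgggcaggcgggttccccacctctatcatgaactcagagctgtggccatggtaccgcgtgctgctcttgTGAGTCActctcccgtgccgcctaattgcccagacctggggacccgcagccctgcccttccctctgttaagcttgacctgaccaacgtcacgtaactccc
ATF3 upstream: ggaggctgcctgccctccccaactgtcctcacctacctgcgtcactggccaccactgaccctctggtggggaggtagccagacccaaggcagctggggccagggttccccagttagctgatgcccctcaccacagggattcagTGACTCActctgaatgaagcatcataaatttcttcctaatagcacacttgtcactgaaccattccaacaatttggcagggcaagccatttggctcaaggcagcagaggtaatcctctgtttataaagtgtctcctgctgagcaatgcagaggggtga
In the ATF3 peak the word lay 3 bases before the peak's centre, and in the FOSL2 peak it lay 54 bases past it.

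**Figure D1:**
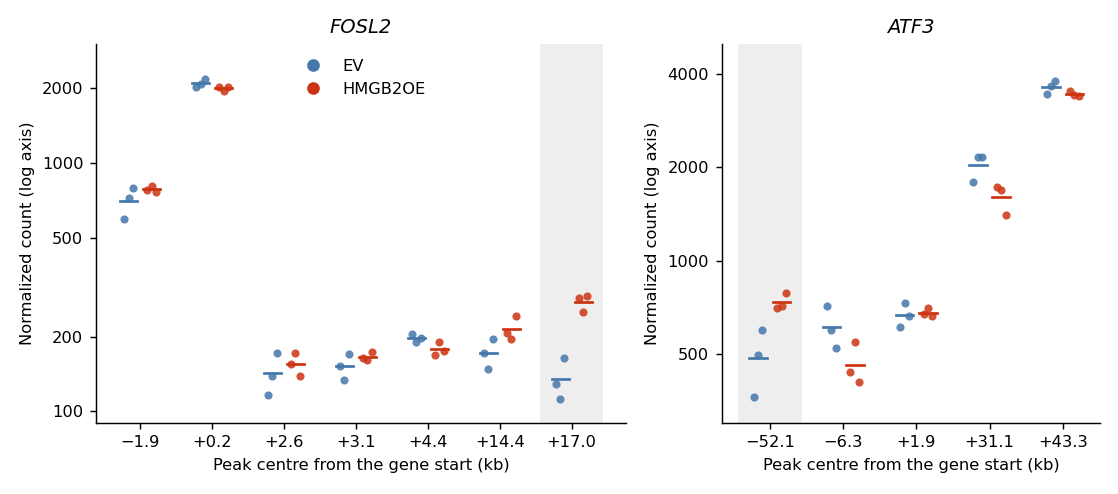
Normalized counts (log axis) at the 7 peaks of FOSL2 and at 5 peaks of ATF3 (the called one, both that were lower at adjusted p only, and the promoter peaks 1.87 and 43.3 kb past the start), by distance of the peak centre from the gene start in kb. Each point is a library (EV blue, HMGB2OE red), each line a group mean, and the grey band marks the called peaks, where all 3 red points lie above all 3 blue ones.

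Other peaks near these sites were counted too. Within 100 kb of the FOSL2 peak, 14 other peaks were tested and 1 (7.14%, beside the 1.87% of all tested peaks) was called higher, in the body of the neighbouring gene BABAM2, with a mean of 85.8 ± 11.0 in EV and 128 ± 11.2 in HMGB2OE libraries (SD, n = 3, log2 fold change 0.59, adjusted p = 0.0295). A further BABAM2 peak 167.5 kb before the FOSL2 start was called higher too (log2 fold change 0.68, adjusted p = 0.0267). For both of these peaks FOSL2 has the nearest start site, but they lie inside another gene and are not counted among the 101. Within 100 kb of the ATF3 peak, 29 other peaks were tested, 0 were called, and 3 (10.3%, beside 3.03% of all tested peaks) were lower at an adjusted p under 0.05 with a fold change below 1.5 (1 higher and 5 lower at an unadjusted p under 0.05). Of these 3, 2 are ATF3 peaks described next, and the other belongs to the neighbouring gene NENF (1439 ± 140 to 1076 ± 14.4, SD, n = 3, log2 fold change -0.42, adjusted p = 0.00174).

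Without the limit on the fold change, 2 of the 101 peaks were higher (3.44% of all tested peaks) and 3 were lower (3.03% of all tested peaks). The 3 lower ones were at ATF3 and JUN. An intronic ATF3 peak 31.1 kb past the start, at chr1:212596158-212596659, had counts of 1796, 2154 and 2153 in EV and 1723, 1693 and 1400 in HMGB2OE libraries. All 3 HMGB2OE libraries were below the EV ones (log2 fold change -0.34 with an SE of 0.0853, adjusted p = 0.0136). A peak 6.3 kb before the ATF3 start, at chr1:212558755-212559256, had counts of 716, 595 and 524 against 436, 545 and 405, which overlap (log2 fold change -0.40 with an SE of 0.113, adjusted p = 0.0315). Each of these ATF3 peaks kept an adjusted p under 0.05 in 11 of 16 fits. The first lost it with GC-content offsets, with these and the replicate block together, and without EV replicate 2, EV replicate 3 or HMGB2OE replicate 3 (0.103 at most). The other lost it in DESeq2 and without EV replicate 1, EV replicate 2, HMGB2OE replicate 1 or HMGB2OE replicate 3 (0.167 at most). The JUN peak, 19.6 kb past the start and beyond the gene's end, at chr1:58764214-58764715, had a mean of 159 ± 18.9 in EV and 111 ± 4.13 in HMGB2OE libraries (SD, n = 3, log2 fold change -0.52, adjusted p = 0.0301). It kept an adjusted p under 0.05 in 10 of 16 fits and lost it in DESeq2 and without any 1 of 5 libraries (0.111 at most).

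**Figure D2:**
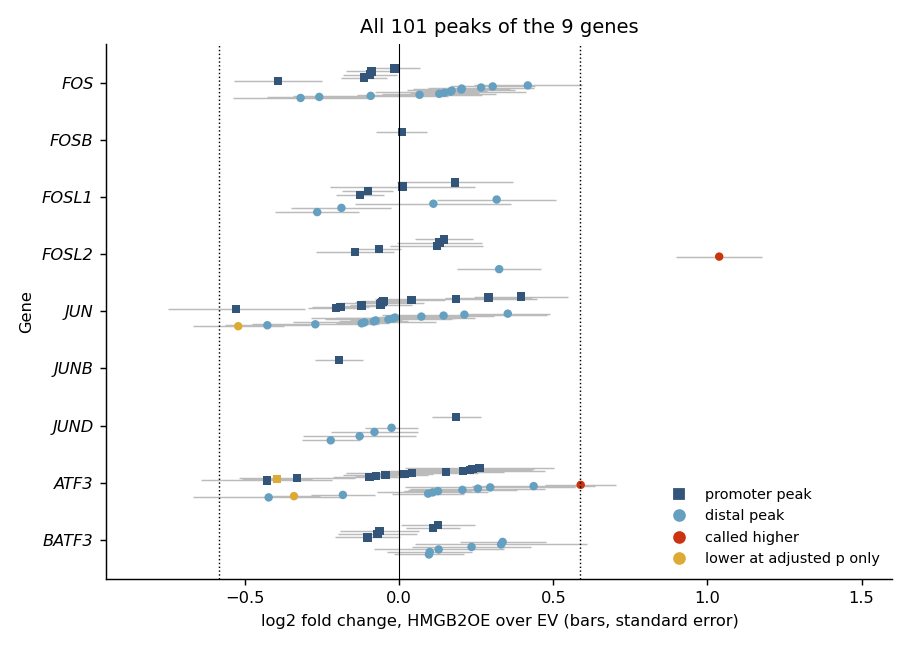
Log2 fold change (HMGB2OE over EV, horizontal axis) of all 101 peaks by gene, with bars for the standard error and dotted lines at the fold limit of 1.5. Squares are promoter peaks and circles distal peaks, with called peaks in red (1 at FOSL2, 1 at ATF3) and the 3 peaks lower at adjusted p only in ochre.

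As a group the 101 peaks lay close to all other peaks. Their median log2 fold change was 0.010, beside -0.0049 over all tested peaks. They ranged from -0.53 to 1.04. The 47 promoter peaks had a median of -0.054 (all promoter peaks -0.036) and the 54 distal peaks a median of 0.10 (all distal peaks 0.014). Groups did not overlap at 21 of the 101 peaks, 8 above and 13 below, which is 20.8%, beside 25.1% of all tested peaks. In promoter peaks 0 were called higher and 0 lower by edgeR and by DESeq2, beside 1.07% and 0.838% of all promoter peaks. At an unadjusted p under 0.05 in edgeR, 2 were higher and 6 lower, beside 3549 and 4858 of all 46300 tested promoter peaks. In distal peaks 2 were called higher (3.70%) and 0 lower, beside 2.22% and 1.71% of all distal peaks. At an unadjusted p under 0.05 in edgeR, 8 were higher and 4 lower, beside 12562 and 10389 of all 103817 tested distal peaks.

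**Figure D3:**
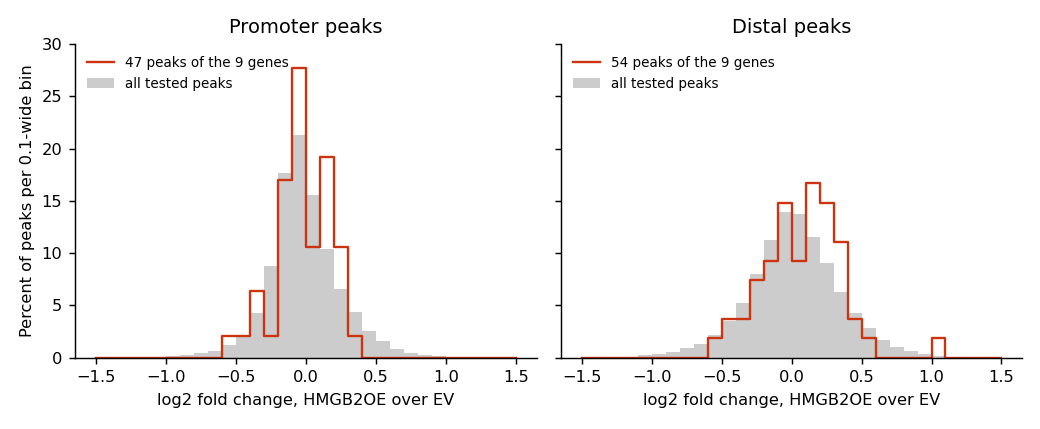
Percent of peaks (vertical axis) per 0.1-wide bin of log2 fold change, HMGB2OE over EV (horizontal axis), for all tested peaks (grey bars) and the peaks of the 9 genes (red line), with promoter peaks on the left and distal peaks on the right. Values past 1.5 in size are in the end bins. The red and grey shapes overlap over most of their range, and the single distal peak near 1 is the FOSL2 intronic peak.

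At their own promoters, all 9 genes were accessible in both groups. For each gene the promoter peak of highest mean count within 3 kb of one of its own starts was taken. The order of mean EV counts was ATF3, JUN, JUNB, FOSL2, JUND, FOSL1, FOS, FOSB and BATF3. Against 46300 tested promoter peaks with a median count of 171, these peaks stood between the 70.0 percentile (BATF3) and the 99.9 percentile (ATF3). EV libraries overlapped between the neighbours ATF3 and JUN, JUN and JUNB, and FOSL2 and JUND, and did not overlap between the other neighbours in the order. The peaks of the 9 genes all have a width of 502 bases, so width does not enter this order. GC content ran from 61.55% (JUN) to 77.09% (JUND) and was not corrected for in the order. The order is therefore one of counts, and not a measured ranking of accessibility between genes.

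Among the FOS genes the promoter counts were level between groups. The FOS peak, 1.6 kb before the start at chr14:75276933-75277434, had a mean of 1232 ± 115 in EV and 1220 ± 86.3 in HMGB2OE libraries (SD, n = 3, adjusted p = 0.945). The peak over the first exon of FOS, 0.268 kb past the start, had a mean of 1222 ± 57.3 and 1143 ± 158 (SD, n = 3, log2 fold change -0.095, adjusted p = 0.588). FOSB, whose product resembles FOS, has its peak in an intron at chr19:45469135-45469636, which is also inside the body of the neighbouring gene ERCC1, with counts of 969 ± 12.9 and 975 ± 60.4 (SD, n = 3, adjusted p = 0.972). FOSL1, which encodes FRA1, had its peak over the start, at chr11:65900301-65900802, with counts of 1523 ± 102 and 1396 ± 92.2 (SD, n = 3, log2 fold change -0.13, adjusted p = 0.378). The FOSL2 peak, at chr2:28392378-28392879, stood at 2084 ± 82.8 and 1991 ± 46.0 (SD, n = 3, log2 fold change -0.066, adjusted p = 0.649). HMGB2OE and EV libraries overlapped at each of these peaks, so the intronic rise of FOSL2 stood beside a promoter for which no difference was detected.

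Of the 3 JUN genes, none had a promoter peak that passed the test. The JUN peak, centred 80 bases before the start at chr1:58783878-58784379, was at 3171 ± 282 in EV and 3063 ± 189 in HMGB2OE libraries (SD, n = 3, log2 fold change -0.050, adjusted p = 0.755). JUNB, whose product is a weaker activator than JUN, had its peak at chr19:12791424-12791925, also inside the body of HOOK2, with counts of 2556, 2978 and 2909 in EV and 2714, 2338 and 2328 in HMGB2OE libraries (log2 fold change -0.19 with an SE of 0.0771, adjusted p = 0.133). JUND, which is expressed in resting cells as well, had its peak at chr19:18281702-18282203, with counts of 1759, 1826 and 2132 in EV and 2224, 2250 and 2028 in HMGB2OE libraries (log2 fold change 0.19 with an SE of 0.0788, adjusted p = 0.164). At both genes the groups overlapped. In other edgeR fits an adjusted p under 0.05 was reached below the fold limit. For JUND this was with a loess trend on mean log count (0.26, adjusted p = 0.00778) and without EV replicate 3 (0.27, adjusted p = 0.0454). For JUNB it was without EV replicate 1 (-0.26, adjusted p = 0.0230).

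The ATF3 peak of highest count lay 43.3 kb past the first annotated start, by an alternative start inside the gene (chr1:212608414-212608915), at 3636 ± 178 in EV and 3454 ± 66.3 in HMGB2OE libraries (SD, n = 3, log2 fold change -0.074, adjusted p = 0.574). The peak near the first start, 1.87 kb past it, was at 670 ± 59.9 and 680 ± 20.5 (SD, n = 3, adjusted p = 0.939). BATF3, known for its role in dendritic cells, had the lowest promoter count (chr1:212699027-212699528), 435 ± 55.9 and 407 ± 19.0 (SD, n = 3, log2 fold change -0.10, adjusted p = 0.633). A further 3 peaks within 3 kb of the starts of FOSB and JUNB lay in the bodies of ERCC1 and HOOK2 and were given to those genes. The most accessible of them, 1.31 kb before the JUNB start, had a mean of 2980 ± 204 in EV and 2763 ± 216 in HMGB2OE libraries (SD, n = 3, log2 fold change -0.11, adjusted p = 0.426).

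**Figure D4:**
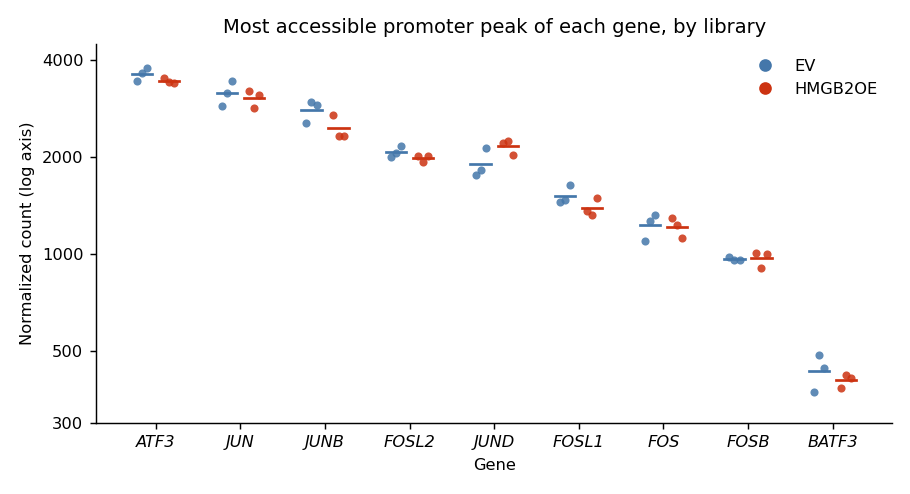
Normalized count (log axis) of the most accessible promoter peak of each of the 9 genes. Each point is a library (EV blue, HMGB2OE red) and each line a group mean, with genes ordered by EV mean from ATF3 (3636) to BATF3 (435), and the points of the groups overlap at every gene.

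The distal peaks differed in number between genes. JUN had 14, FOS 13, ATF3 11, BATF3 6, FOSL1 4, JUND 4 and FOSL2 2, and FOSB and JUNB, which have close neighbours on chromosome 19, had no distal peak. FOS had 10 of 13 distal log2 fold changes above 0, beside 54021 of all 103817 tested distal peaks. It had 0 of 5 promoter ones above 0, beside 19881 of all 46300 tested promoter peaks. Those 5 include peaks 21.5 and 19.7 kb before and 15.4 kb past the start, which lie near other starts only. Of the FOS peaks, 0 passed the test (2 higher and 1 lower at an unadjusted p under 0.05). The FOS distal peak of highest count, 5.1 kb past the start, had counts of 438, 550 and 713 in EV and 652, 636 and 629 in HMGB2OE libraries, within the EV range. BATF3 had 6 of 6 distal values above 0, from 0.097 to 0.34, with 0 past the test (1 higher at an unadjusted p under 0.05). JUND had 4 of 4 below 0, from -0.22 to -0.025, with 0 past the test (1 lower at an unadjusted p under 0.05). JUN had 4 of 14 above 0. At both distal peaks of FOSL2 all 3 HMGB2OE libraries lay above the EV ones, beside 14526 of all 103817 tested distal peaks. The called intronic peak is 1 of these 2. The peak that was not called, 14.4 kb past the start, had counts of 172, 148 and 195 in EV and 207, 196 and 242 in HMGB2OE libraries (log2 fold change 0.32 with an SE of 0.136, adjusted p = 0.158).

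So that a gene with many peaks counts once, counts were summed per gene over its promoter peaks and over its distal peaks and tested with edgeR over all genes. The promoter sums include promoter peaks that lie near another start only. Of 7 members with distal peaks, 1 passed an adjusted p under 0.05 upward, FOSL2, and 0 downward (3 and 0 at an unadjusted p under 0.05, 1 and 0 by DESeq2), beside 6.19% and 5.76% of all 14125 genes. Its distal sum was 310, 257 and 358 in EV and 486, 453 and 531 in HMGB2OE libraries, which do not overlap (log2 fold change 0.68 with an SE of 0.108, adjusted p = 4.31e-04). The call held in 13 of 13 fits, but the value fell to 0.33 (adjusted p = 0.00523) when promoters were taken as 1 kb and more peaks joined the distal sum. FOSL2 has 2 distal peaks, and 1 of them is the called intronic peak, so this sum is not separate from that call. The other distal peak of FOSL2 did not pass the edgeR test (adjusted p = 0.158). The next smallest adjusted p among the distal sums were 0.119 for BATF3 (log2 fold change 0.16) and 0.184 for FOS (0.14), and FOS passed only without EV replicate 3 (0.23, adjusted p = 0.0254).

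Of the 9 promoter sums, 1 passed upward, JUND, and 0 passed downward (1 each way at an unadjusted p under 0.05), beside 3.54% and 1.35% of all 16577 genes. JUND has a single promoter peak, which did not pass the edgeR test over all peaks (log2 fold change 0.19, adjusted p = 0.164). The JUND promoter sum is the count of this same peak, scaled by the factors of the promoter sums. It was 1765, 1761 and 2098 in EV and 2262, 2264 and 2091 in HMGB2OE libraries. EV replicate 3 lay just above HMGB2OE replicate 3 (log2 fold change 0.24 with an SE of 0.0594, adjusted p = 0.0207). The call was lost with the scaling factors of all peaks (0.19, adjusted p = 0.0541), and without EV replicate 1 (0.0678), EV replicate 2 (0.186), HMGB2OE replicate 1 (0.126) or HMGB2OE replicate 2 (0.0574), where the values are adjusted p. The promoter sum of JUNB differed by -0.14 on the log2 scale (SE 0.0598, adjusted p = 0.162) and passed only with the scaling factors of all peaks (adjusted p = 0.0490), which move the median of all promoter sums from -0.0019 to -0.053. The other 7 promoter sums had log2 fold changes from -0.054 to 0.11.

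Whether distal and promoter counts of a gene differed unequally was tested directly, as the distal log2 fold change minus the promoter one with each library as a block. Of 7 members with both classes, 2 passed, beside 4.27% of all 12362 genes. FOSL2 had a difference of 0.64 (SE 0.0977, adjusted p = 0.00443), which held in 11 of 11 fits (adjusted p of 0.0340 at most) but fell to 0.33 when promoters were taken as 1 kb. Its distal part again includes the called intronic peak. JUND had a difference of -0.34 (SE 0.0848, adjusted p = 0.0333), with a promoter sum that was higher and a distal sum of 1667 ± 37.0 in EV and 1556 ± 73.0 in HMGB2OE libraries (SD, n = 3, adjusted p = 0.271). It passed in 6 of 11 fits and was lost in the same 5 settings as the JUND promoter sum. FOS had a difference of 0.19 (adjusted p = 0.106). For ATF3, BATF3, FOSL1 and JUN the difference was between -0.057 and 0.052.

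**Figure D5:**
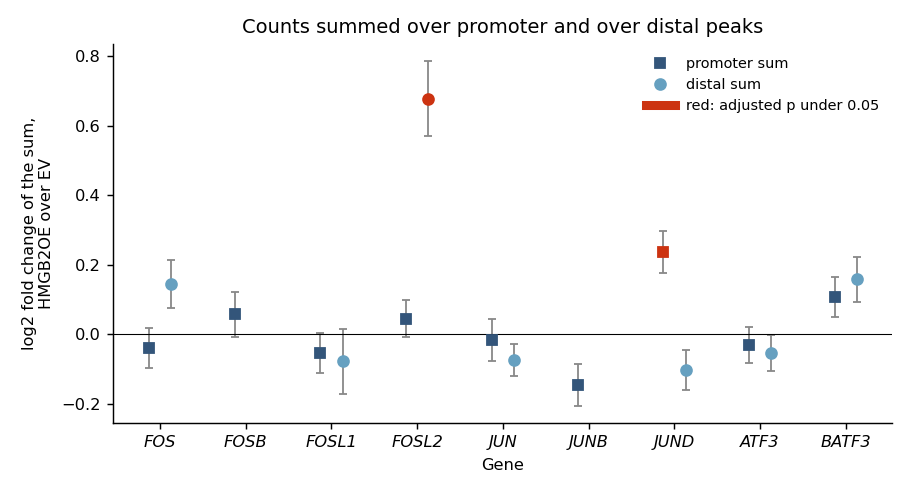
Log2 fold change (HMGB2OE over EV) of counts summed over the promoter peaks (squares) and the distal peaks (circles) of each gene, with bars for the standard error. Red marks an adjusted p under 0.05 over all genes, which the FOSL2 distal sum (0.68) and the JUND promoter sum (0.24) passed, and FOSB and JUNB have no distal peak. The JUND promoter sum is a single peak, which did not pass the edgeR test over all peaks (adjusted p = 0.164).

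The genes whose distal sums followed FOSL2 most closely over the 6 libraries were ATOH7, ANLN and TDGF1P3. Likeness was the root mean square difference of centred log2 sums among 4469 genes of similar count, which was 0.0740 for ATOH7, 0.106 for ANLN and 0.118 for TDGF1P3. The distal sum of ANLN, which encodes a scaffold protein of cytokinesis, was between 573 and 680 in EV and between 892 and 946 in HMGB2OE libraries. Because these genes were picked for likeness to FOSL2 over the same libraries, their rise follows from the choice and is not a separate result.

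AP-1 binds near several of its own genes, and the AP-1 word was therefore counted in the peaks. TGACTCA and TGAGTCA are each other's reverse complement, so both strands are covered. The word was in 34 of the 101 peaks (33.7%), beside 28.0% of all tested peaks, with 29.8% of the promoter peaks (all promoter peaks 19.0%) and 37.0% of the distal peaks (all distal peaks 32.0%). FOS had it in 1 of 18 peaks, JUN in 11 of 26 and ATF3 in 11 of 24. Both called peaks were among the 34 with the word (5.88%, beside 2.39% of all tested peaks with the word and 1.66% of those without it called higher). Their median log2 fold change was 0.057, with 19 above 0 and 15 below, and the 67 without it had a median of -0.014, beside 0.0053 and -0.0087 over all tested peaks with and without the word. Sites in peaks that differed in opposite directions at adjusted p, or that lie at promoters, are shown with 10 bases on each side, on the plus strand of hg38 and with the word in capitals.
FOSL2 intron, 17.0 kb past the start, chr2:28409455-28409481: gctgctcttgTGAGTCActctcccgtg
ATF3, 52.1 kb before the start, chr1:212513232-212513258: agggattcagTGACTCActctgaatga
ATF3, 6.3 kb before the start, chr1:212559017-212559043: gcggtccgggTGAGTCAccggccccgc
ATF3 intron, 31.1 kb past the start, chr1:212596503-212596529: acacagacagTGACTCAggtggaacat
FOSL2 promoter, chr2:28392852-28392878: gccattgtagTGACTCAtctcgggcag
FOSL1 promoter, chr11:65900373-65900399: tgctgggttcTGACTCAcccgcgccgt
The first pair rose, the next pair was lower at an adjusted p under 0.05 in 11 of 16 fits each without passing the fold limit, and the last pair did not pass the test. The ATF3 peak 6.3 kb before the start is a promoter peak by the rule as well.

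Variants of the word at promoters were sought in the 250 bases before the starts of the RefSeq promoter table (GRCh38.p14), which matched 7 of the 9 genes, all but FOSL1 and BATF3. For ATF3 the windows were chr1:212565157-212565406 and chr1:212614768-212615017. The alternative start by the ATF3 peak of highest count had no window and was not searched. The words searched on both strands were TGACTCA or TGAGTCA, the cyclic AMP response element TGACGTCA, the variant TGACATCA and the CArG box of serum response factor. Over 35116 windows of the same length, 4.20% held the first, 1.65% the second, 2.38% the third and 1.16% the CArG box. The third was in the JUN window, 67 bases before the start, and in that of the first ATF3 start, 123 bases before it. The second was in the JUND window, 200 bases before the start. These are shown on the strand of the gene with the word in capitals.
JUN, chr1:58784097-58784124, minus strand: ggccttggggTGACATCAtgggctattt
ATF3, chr1:212565274-212565301, plus strand: acctatgataTGACATCAtatggccact
JUND, chr19:18281805-18281832, minus strand: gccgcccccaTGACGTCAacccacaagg
The windows of FOS, FOSB, JUNB and FOSL2 held none of these words. The JUN window lay wholly inside the JUN promoter peak, whose level did not pass the test. The windows of ATF3, FOS and FOSB overlapped no peak of the 9 genes.

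Other genes of the pathway were described as 4 lists. Among 235 tested peaks of 16 basic leucine zipper partners, 6 were called higher and 3 lower, with a median log2 fold change of -0.0087. JDP2, a repressor of AP-1, had 1 peak called higher (98.5 ± 26.5 to 165 ± 28.8, SD, n = 3, log2 fold change 0.73). BACH1, a haem-regulated repressor, had 2 called lower (log2 fold changes -0.65 and -0.84). Among 160 peaks of 19 upstream kinases and serum response factors, 2 were called higher and 3 lower (median -0.044), and ELK3, a ternary complex factor, had 2 intragenic peaks called lower (-0.59 each).

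Among 451 peaks of 21 other immediate-early genes, 8 were called higher and 9 lower (median -0.055). MYC had 1 called higher and 6 lower, the lower ones between -1.07 and -0.65. All of these were intergenic and were given to MYC as the nearest start. The lower ones lay 170 kb before the start and 342 to 693 kb past it, and the higher one 821 kb past it. DUSP1, a MAP kinase phosphatase, had 3 called higher (0.65 to 0.94). Among 232 peaks of 22 AP-1 target genes, 1 was called higher and 5 lower (median -0.083), and without the fold limit 2 were higher (0.862%, beside 3.44% of all tested peaks) and 18 lower (7.76%, beside 3.03%). VEGFA, the angiogenic factor, had the higher one (237 ± 31.5 to 401 ± 31.1, SD, n = 3, log2 fold change 0.75), and VIM, AREG, CXCL8 and MMP10 the lower ones. With the fold limit, the shares of the 4 lists called higher were between 0.431% and 2.55%, and those called lower between 1.28% and 2.16%, beside the 1.87% and 1.44% of all tested peaks given above. Without the fold limit, 10 of the 235 partner peaks were higher (4.26%) and 9 lower (3.83%). Of the 160 kinase and serum response factor peaks, 4 were higher (2.5%) and 5 lower (3.125%). Of the 451 immediate-early peaks, 18 were higher and 18 lower (3.99% each).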

How the data were processed

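By the study's methods, the authors used Trim Galore 0.6.7 and cutadapt 4.0 for trimming, Bowtie 2 for alignment to hg38 and Picard for duplicates; peaks came from MACS2 with melanocyte data as control, and those within 500 bases were joined into 1 atlas without blacklisted regions. The deposited values are raw featureCounts counts per peak and library, without normalization. Any Tn5 shift of read positions is not given in the sources used here. Counts were tested with edgeR 4.0.16 in R 4.3.3 (filterByExpr, TMM, quasi-likelihood F test, no covariate), and with DESeq2 1.42.0 as an alternative. Standard errors are |log2 fold change|/√F. Groups came from the sample labels. The scripts were tested on simulated data. Named were all 9 genes, each one's most accessible own promoter peak, each called peak, and the 3 genes most like the member with the smallest distal p; list genes, other peaks and neighbouring peaks were named after their values were seen. The members, lists and tests were chosen with earlier results of these data known. Values of a few genes in the marker and pathway lists are not reported here.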

Additional observations from a re-analysis of the deposited data

Results flagged for a closer look

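Distal and promoter counts of the same gene differed unequally between HMGB2OE and EV libraries at 2 of the 7 genes that have both, by the edgeR test of that difference. The share over all 12362 genes tested was 4.27%. For FOSL2 the distal log2 fold change minus the promoter one was 0.64 (adjusted p = 0.00443), with all 3 HMGB2OE distal sums above all 3 EV ones, and fell to 0.33 (adjusted p = 0.0263) with promoters taken as 1 kb. The FOSL2 distal sum holds 2 peaks, 1 of them the called intronic peak. For JUND the same difference was -0.34 (adjusted p = 0.0333), and this call was lost with the scaling factors of all peaks and without any 1 of 4 libraries. The JUND promoter sum is a single peak, which did not pass the edgeR test over all peaks (adjusted p = 0.164).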

How the results depend on the processing

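The 2 members called higher became 1, with FOSL2 left, under GC-content offsets, under the replicate block with GC-content offsets, and without EV replicate 1 or HMGB2OE replicate 3 (1 to 2 over the 6 fits that leave out a library), where the ATF3 peak missed the fold limit at 0.54, 0.56, 0.43 and 0.54. They became 4 when all peaks went to the nearest start site, which adds the 2 BABAM2 peaks. Members called lower were 3 (1 promoter, 2 distal) with no limit on the fold change. Leaving out a library gave 0 to 1 of them in all, among promoter peaks (JUN, 122 kb before the start, without EV replicate 2, log2 fold change -0.77) and among distal peaks (JUN, 19.6 kb past the start, without EV replicate 3). Whether replicate numbers pair the libraries cannot be told from 3 libraries a group. Correlations of same-numbered libraries were -0.088, 0.19 and 0.13, and 3 of 6 libraries correlated best with their own number. The replicate block alone left 2 members called higher and 0 lower.

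Over the fits that leave out a library, promoter sums past the test were 0 to 1, distal sums 1 to 2 (FOS joined without EV replicate 3) and unequal sums 1 to 2. With the scaling factors of all peaks, chosen after seeing the data, JUNB took the place of JUND among promoter sums, and FOS that of JUND among unequal sums. The sign of small promoter log2 fold changes turned: FOS to 0.026 (GC-content offsets), 0.0069 (library size only), 0.044 (loess trend), 0.027 (replicate block with GC-content offsets) and, 0.0097, 0.035 and 0.039 without 1 of 3 libraries (range -0.084 to 0.039); FOSB to -0.021, -0.014 and -0.00076 without 1 of 3 libraries (range -0.021 to 0.059); FOSL2 to 0.0028, JUN to 0.028 and ATF3 to 0.0051 with the loess trend; JUN without EV replicate 3 to 0.013 (range without a library -0.11 to 0.013); and HMGB2 to 0.011 (library size only), 0.061 (loess trend), and 0.071 and 0.0071 without 1 of 2 libraries (range -0.085 to 0.071). None of these passed the test, and the cause was not tested. With 3 libraries a group, the standard error of a member peak's log2 fold change was 0.0674 to 0.279, and differences of that size were not detectable. Differences well beyond the standard error could be missed too. The JUN peak 29.8 kb past the start did not pass the edgeR test (log2 fold change -0.43, SE 0.137, adjusted p = 0.0564).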
